A study of Mus musculus with 8 samples.

Results

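Scavenger receptors and Fc gamma receptors are the surface proteins with which macrophages take up modified lipoproteins, microbes, dying cells and antibody-coated particles. Transcripts of 10 of them (Msr1, Marco, Cd36, Scarb1, Olr1, Cd5, Fcgr1, Fcgr3, Fcgr4 and Fcgr2b) were followed in RAW264.7, an established mouse macrophage line transformed with Abelson leukemia virus. Members were chosen by symbol, with earlier results of these data known. Every array probe annotated to 1 of the 10 genes was taken, which gave 15 of the 56605 probes on the array. All 10 genes passed the filter on dim probes, among 19983 genes tested.

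The cells received either 1 mM melatonin for 1 h or no melatonin, and were then given 100 ng/ml LPS (lipopolysaccharide from the outer membrane of Escherichia coli) for 1, 3 or 5 h. A further array of each arm had no LPS (0 h). Each of the 8 conditions had 1 array, so that an LPS time compares 2 arrays with 2 and melatonin compares 4 arrays with 4. Every p-value rests on how far the arms depart from the fitted courses, with the spread moderated over all genes. No condition was repeated, so technical spread and real differences between the courses of the arms cannot be told apart in it. Culture was in a medium with 5% fetal bovine serum in all groups. All 8 arrays sat on 1 slide, in which each arm had its own row and each LPS time its own column. The arm cannot be told apart from the slide row, and LPS time cannot be told apart from the slide column, hours in culture or time since melatonin. These are bulk RNA measurements, in which fewer expressing cells and less RNA per cell cannot be told apart.

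Sample titles set the groups. The treatment field placed 3 of the 4 melatonin samples at a later LPS step and was empty for the melatonin sample at 5 h. Across 1063 genes that changed by at least 2 log2 at 5 h, a choice that itself used the titles, and with each gene centred within its arm, the melatonin arrays titled 0, 1 and 3 h correlated more with the array without melatonin of the same titled time (r = 0.919, 0.796 and 0.796, across genes, which are not independent replicates) than with that of the next time (0.517, -0.691 and 0.683). The share of probes well above background ran from 46.96% to 52.99% over the arrays, and no spot was saturated. All 8 macrophage markers checked (among them Adgre1, Csf1r, Cd68 and Lyz2) were well above background on all 8 arrays. None of 5 B cell, 4 dendritic cell or 4 fibroblast markers, 1 of 4 neutrophil markers and 4 of 6 T cell markers were above background on all 8.

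Class A scavenger receptors (encoded by Msr1 and Marco) are trimeric proteins that bind polyanions such as oxidised low-density lipoprotein and bacterial surface molecules. CD36 and SR-BI (Scarb1) are class B receptors, which bind oxidised lipoprotein, fatty acids and high-density lipoprotein, and Olr1 encodes a lectin-like receptor for oxidised lipoprotein. CD5 has the scavenger receptor cysteine-rich fold and is best known as a T cell and B-1a cell protein. Fc gamma receptors bind the constant part of IgG: Fcgr1, Fcgr3 and Fcgr4 encode activating receptors, which signal through the immunoreceptor tyrosine-based activation motif of the common gamma chain (Fcer1g), and Fcgr2b encodes the single inhibitory receptor, which recruits the lipid phosphatase SHIP1 (Inpp5d).

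Levels below are log2 signals relative to the 75th percentile of each array, and a change or difference of 1 on this scale is a factor of 2. Levels of different probes are not compared with each other. After 5 h of LPS, 6 receptors had risen (Olr1, Cd36, Fcgr2b, Msr1, Cd5 and Fcgr4) and 2 had fallen (Fcgr3 and Scarb1). Fcgr3 is counted throughout at its brighter probe, and its dimmer probe rose at 5 h (1.12 ± 0.28, limma adjusted p = 0.0204). Melatonin lowered 6 receptors (Cd5, Fcgr2b, Msr1, Fcgr1, Fcgr3 and Marco) and raised none. Of the Marco melatonin arrays only that of 3 h was well above background, and leaving out any single array ended the Marco call. A receptor was counted as changed at an adjusted p under 0.05 in the limma model over all genes. Of all genes tested, 24.9% rose and 19.4% fell at 5 h, and 25.3% were lower and 15.4% higher with melatonin. At 3 h, 3 receptors had risen (Olr1, Msr1 and Fcgr2b) and 3 had fallen (Fcgr3, Fcgr1 and Scarb1), beside 18.6% and 15.1% of all genes. At 1 h, 1 receptor (Olr1) had risen and none had fallen, beside 1.67% and 0.285%. From 1 to 3 h, 2 receptors rose (Olr1 and Msr1) and 3 fell (Fcgr3, Fcgr1 and Scarb1), beside 8.42% and 6.85% of all genes, and from 3 to 5 h none passed, beside 0.0951% of all genes. All 5 calls from 1 to 3 h were lost without the 1 h array without melatonin (adjusted p from 0.0722 to 0.286) and without the 1 h melatonin array (0.0622 to 0.2), and some without other arrays; Fcgr2b gained a call without the 3 h melatonin array (1.69, 0.027). The median change of the 10 receptors was 0.12 at 1 h, 0.72 at 3 h and 1.47 at 5 h, against -0.0080, 0.057 and 0.082 for all genes. Their median melatonin difference was -0.94, against -0.096. Since the members were chosen with earlier results of these data known, their counts and medians beside all genes are descriptions. The melatonin and LPS splits of all genes moved with the scaling: the share of calls that were rises went from 55.1% to 42.8% at 3 h, from 56.2% to 43.5% at 5 h and from 37.8% to 52.4% for melatonin under quantile normalization. The receptor counts at 3 h, at 5 h and for melatonin were the same under it.

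**Figure D1:**
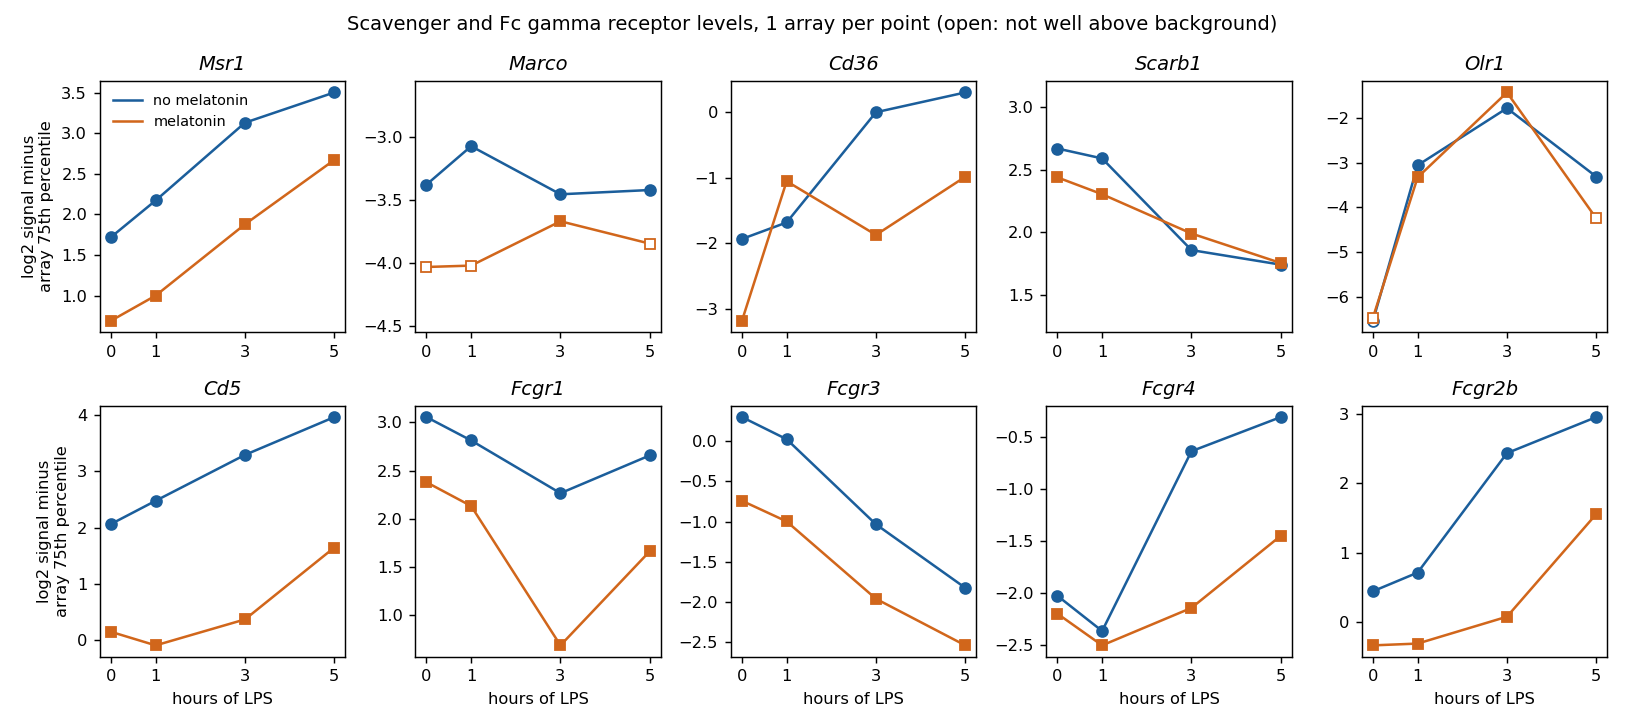
Level of each receptor (log2 signal minus the array's 75th percentile, vertical axis, scaled per panel) against hours of LPS, 1 array per point, without melatonin (circles) and with it (squares). Open points are not well above background. In Cd5 and Marco every melatonin array lies below every array without melatonin. Of the Marco melatonin arrays only that of 3 h was well above background.

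Msr1, the class A receptor that gives macrophages much of their uptake of oxidised lipoprotein, rose with time in both arms. Its level was 1.72, 2.17, 3.13 and 3.50 at 0, 1, 3 and 5 h without melatonin. With melatonin it was 0.69, 1.00, 1.88 and 2.67. Each melatonin array was lower than its partner, although the ranges of the arms overlapped. The LPS change was 1.30 ± 0.12 (SE, limma adjusted p = 0.00152) at 3 h and 1.88 ± 0.12 (adjusted p = 0.000391) at 5 h, a rise of 3.68-fold. The melatonin difference was -1.07 ± 0.085 (SE, limma adjusted p = 0.00227), and it was between -1.25 and -0.83 at the 4 times. Further probes of a receptor were fitted as features of their own among 30430 probes, of which 24.2% rose and 18.9% fell at 5 h and 22.3% were lower with melatonin. A second Msr1 probe gave 1.95 ± 0.21 at 5 h and -1.49 ± 0.15 for melatonin, the same directions as at the first probe. The probes lie at chr8:40709296-40709355 and chr8:40689158-40689217 (mm9, minus strand).

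Marco, the other class A receptor and a binder of unopsonised particles, was near the lower end of the measurable range. Without melatonin it was well above background on all 4 arrays, at -3.38, -3.07, -3.45 and -3.42. With melatonin it read -4.03, -4.02, -3.67 and -3.85, and only the 3 h array was well above background. The arms did not overlap; all 4 melatonin arrays lay below all 4 others for 12.7% of all genes and above them for 6.57%, and no receptor was of the second kind. The melatonin difference was -0.56 ± 0.17 (SE, limma adjusted p = 0.0456). It sets arrays well above background against arrays that mostly were not, so this size is not exact. Leaving out any single array ended that call, with adjusted p from 0.0635 to 0.163 over the 8 omissions. Both omissions of a time gave the same estimate, since the array left at that time is then fitted exactly, so they are not separate checks. Testing without the filter on dim probes ended the call too (0.106). LPS changes of Marco were between 0.072 and 0.16 and did not pass the test. The 1 Marco probe has its listed coordinates at chr1:122371115-122371134 (mm9, minus strand).

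Cd36, a class B receptor for oxidised lipoprotein and long-chain fatty acids, was higher after LPS, with a wide spread. Without melatonin the levels were -1.93, -1.68, 0.0032 and 0.31 at 0, 1, 3 and 5 h. With melatonin they were -3.18, -1.05, -1.87 and -0.98. The 1 h melatonin array was the only one above its partner, by 0.63; at 0, 3 and 5 h melatonin was lower by 1.25, 1.87 and 1.29. At 5 h the LPS change was 2.22 ± 0.56 (SE, limma adjusted p = 0.0225). This call was lost without the 0 h melatonin array (adjusted p = 0.0945), the 5 h melatonin array (0.0733), the 0 h array without melatonin (0.0767) or the 5 h array without melatonin (0.129). The 3 h change of 1.62 ± 0.56 (adjusted p = 0.0711) and the melatonin difference of -0.94 ± 0.40 (0.103) did not pass. Both rested on the 1 h arrays: without the one with melatonin or the one without it, the 3 h change passed (0.00761 and 0.00773), and the melatonin difference became -1.47 and passed (0.0196 and 0.0201). Either omission takes the whole 1 h pair out of these results, so they are not separate checks. The Cd36 probe lies at chr5:17288600-17288659 (mm9, minus strand).

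Scarb1, the class B receptor that exchanges cholesterol with high-density lipoprotein, fell with LPS. It stood at 2.67, 2.59, 1.86 and 1.74 without melatonin and at 2.44, 2.30, 1.99 and 1.76 with it. All 4 arrays of 3 and 5 h lay below all 4 of 0 and 1 h. This split was set after the values were seen, and the share of all genes that part this way was not counted. The change was -0.63 ± 0.13 (SE, limma adjusted p = 0.0142) at 3 h and -0.80 ± 0.13 (adjusted p = 0.0046) at 5 h, where the signal fell by 42.7%. The 3 h call was lost when the 0 h (adjusted p = 0.101) or the 3 h (0.0932) array without melatonin was left out. Its melatonin difference of -0.093 ± 0.088 did not pass (adjusted p = 0.424), with single-time values from -0.28 to 0.13. A dimmer Scarb1 probe gave -0.63 ± 0.17 at 5 h and 0.071 ± 0.12 for melatonin. The probes are at chr5:125757483-125757542 and chr5:125777604-125777663 (mm9, minus strand).

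Olr1, which encodes the lectin-like oxidised lipoprotein receptor, went from not well above background to a peak at 3 h. Its level was -6.54, -3.06, -1.79 and -3.32 without melatonin. With melatonin it was -6.47, -3.33, -1.43 and -4.25. Neither 0 h array, nor the 5 h melatonin array, was well above background, so the size of the rise is not measured. Set against the lowest signal of any probe well above background on the 0 h arrays, the level was at least 2.53-fold higher at 1 h, at least 7.6-fold higher at 3 h and at least 1.68-fold higher at 5 h. At 5 h only 1 of the 2 arrays was well above background, and its mean holds the other one too. These bounds rest on that choice of reference, and probes not well above background can read higher (Marco at -4.03 on the 0 h melatonin array). The limma adjusted p was 0.0125 at 1 h, 0.000757 at 3 h and 0.00239 at 5 h. With all values below -4.02 set to that floor, the changes at 1 h (0.83, adjusted p = 0.285) and 5 h (0.35, 0.348) were smaller than these bounds and were not called, and that at 3 h stayed called (0.00977). The 1 h call was also lost without either 1 h array (0.0797 with melatonin, 0.12 without) or the 0 h array without melatonin (0.0778). The step from 3 to 5 h, -2.17 ± 0.34, did not pass (adjusted p = 0.0969), although both arms were lower at 5 h than at 3 h. Melatonin differences ran from -0.93 to 0.35 and their mean of -0.20 ± 0.24 did not pass (adjusted p = 0.537). The probe lies at chr6:129435316-129435375 (mm9, minus strand); a second one, at chr6:129437690-129437749, was not well above background on any array.

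The Olr1 promoter is shown because this receptor had the largest fitted LPS change of the 10. RefSeq (GRCm38.p6) places the 250 bases before its start at chr6:129507166-129507415 on the minus strand. Capitals mark an AP-1 motif (TGANTCA) at -60 to -54 and, on the opposite strand, a PU.1 motif (GAGGAA) at -76 to -71, counted from the start:
Olr1: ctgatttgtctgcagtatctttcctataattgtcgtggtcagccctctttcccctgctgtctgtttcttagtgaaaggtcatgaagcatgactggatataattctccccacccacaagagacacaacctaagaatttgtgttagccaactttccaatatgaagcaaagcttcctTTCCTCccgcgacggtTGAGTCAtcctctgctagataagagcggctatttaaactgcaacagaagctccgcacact
Motifs were searched on both strands in the promoters of the 8 receptors found in the RefSeq table, with Msr1 and Scarb1 not among them. Among the 8, the AP-1 motif was found for Olr1 alone, and 6.75% of 32851 promoter windows of this length hold it. The PU.1 motif was found for 6 of the 8 and in 23.3% of all windows. A match describes letters in this window and is not a bound site.

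Cd5, a receptor with cysteine-rich scavenger domains, had the largest melatonin difference of the 10. Without melatonin its level was 2.06, 2.48, 3.30 and 3.97 at 0, 1, 3 and 5 h. With melatonin it was 0.15, -0.096, 0.37 and 1.65. The arms did not overlap, since the highest melatonin array lay below the lowest array without melatonin. The melatonin difference was -2.44 ± 0.16 (SE, limma adjusted p = 0.00221), a level 5.41-fold lower, with values of -1.92, -2.57, -2.93 and -2.32 at the 4 times. LPS raised it by 1.70 ± 0.23 (adjusted p = 0.00292) at 5 h. At 3 h its change of 0.73 ± 0.23 did not pass (adjusted p = 0.0561); it was 1.07 and passed (0.0223) without the 0 h melatonin array, and 1.05 (0.0352) without the 3 h melatonin array. Its melatonin by LPS term, the mean melatonin difference under LPS minus that without LPS, was -0.69 ± 0.26, with an unadjusted p of 0.0452 and an adjusted p of 0.909 in the limma model. The probe lies at chr19:10792701-10792760 (mm9, minus strand).

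T cell markers were lower with melatonin, as Cd5 was, and only some of them rose with LPS. Of 6 such markers, Cd3d, Cd3e, Cd4 and Lck were well above background on all arrays, Cd3g on 1 and Cd8a on none. All 4 of those tested were lower with melatonin, for example Cd3e by 0.37, Cd4 by 0.35 and Lck by 0.49 on the log2 scale, each less than Cd5. Of all genes 25.3% were lower. At 5 h of LPS Cd3d rose by 1.52 and Lck by 1.39, whereas Cd3e, at -0.026, and Cd4, at 0.052, did not pass. Markers of other cell types were lower with melatonin too, among them the macrophage gene Mpeg1 by 1.14 and the neutrophil gene Elane by 0.49. The summed T cell marker level, in multiples of the array's 75th percentile, was 8.33 to 12.8 without melatonin and 6.83 to 9.02 with it, against 941 to 1080 and 803 to 899 for the macrophage markers. Such sums over different probes and unlike numbers of markers do not measure the share of a cell type. Of 5 B cell markers none was well above background on all arrays, with a summed level of at most 0.661. Among them Cd79b was well above background on 3 of 8 arrays, all with LPS, and read -6.28 and -6.50 on the 0 h arrays. It was called as raised at 5 h (limma adjusted p = 0.00438) and lower with melatonin (0.0254), the directions of Cd5. These calls set arrays well above background against arrays that were not, so they do not measure a change. Pax5 and Ms4a1 passed neither test. The part of these markers in the Cd5 result was not tested.

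**Figure D2:**
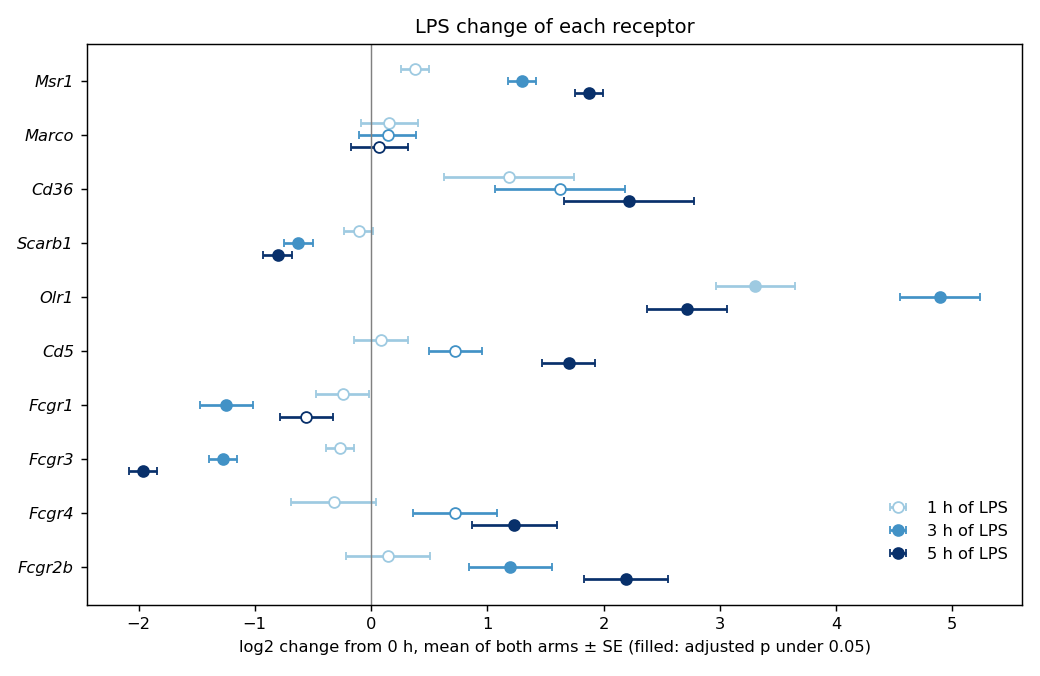
Log2 change of each receptor from 0 h (horizontal axis) at 1, 3 and 5 h of LPS, as the mean of both arms with the limma standard error; filled points have an adjusted p under 0.05. Olr1 reaches 4.90 at 3 h, where both 0 h arrays are not well above background. Fcgr3, drawn at its brighter probe, falls to -1.96 at 5 h, while its dimmer probe, not drawn, rose by 1.12.

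Fcgr1, the high-affinity IgG receptor, was lower at 3 h of LPS and under melatonin. It read 3.06, 2.81, 2.26 and 2.66 without melatonin and 2.38, 2.13, 0.68 and 1.66 with it. In both arms the 3 h array was the lowest of its arm. The LPS change was -1.24 ± 0.23 (SE, limma adjusted p = 0.0111) at 3 h, a call lost without the 0 h melatonin array (adjusted p = 0.0517). At 5 h the change of -0.56 ± 0.23 did not pass (adjusted p = 0.0958), although it did without the 3 h array with melatonin (0.02) or without it (0.0206). Either omission takes the same 3 h pair out of the estimated spread. The step from 3 to 5 h of 0.69 ± 0.23 did not pass (0.269). The melatonin difference was -0.98 ± 0.16 (adjusted p = 0.00801), with -0.68, -0.68, -1.58 and -0.996 at the 4 times. Its probe lies at chr3:96088462-96088521 (mm9, minus strand).

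The Fcgr1 promoter is shown for its gamma-activated sequence (TTCNNNGAA), the element through which STAT proteins act on interferon-responsive genes, since Fcgr1 is a known interferon gamma target. The window is chr3:96293970-96294219 (GRCm38.p6, minus strand), and capitals mark this motif at -109 to -101 and the opposite-strand PU.1 motif at -55 to -50:
Fcgr1: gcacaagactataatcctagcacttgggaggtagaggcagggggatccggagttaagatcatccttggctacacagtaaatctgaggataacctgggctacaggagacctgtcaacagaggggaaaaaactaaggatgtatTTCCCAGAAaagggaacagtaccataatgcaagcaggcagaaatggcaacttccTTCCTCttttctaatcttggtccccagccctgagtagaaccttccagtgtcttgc
The gamma-activated sequence was found in no other receptor promoter of the 8 and in 7.02% of all windows.

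Fcgr4, an activating receptor of intermediate affinity for IgG, was higher at 5 h of LPS. Its level was -2.03, -2.36, -0.64 and -0.31 without melatonin and -2.20, -2.50, -2.14 and -1.45 with it. Melatonin was lower by 0.17 and 0.14 at 0 and 1 h, and by 1.51 and 1.14 at 3 and 5 h. The LPS change at 5 h was 1.23 ± 0.36 (SE, limma adjusted p = 0.0377), a call lost without the 5 h melatonin array (adjusted p = 0.0737), the 0 h array without melatonin (0.21) or the 5 h array without melatonin (0.204). Neither the melatonin difference, -0.74 ± 0.26 (adjusted p = 0.065), nor the melatonin by LPS term, -0.76 ± 0.54 (0.909), passed. The probe is at chr1:172959738-172959797 (mm9, plus strand).

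Fcgr2b, the inhibitory receptor, rose with LPS and was lower with melatonin. Without melatonin it read 0.45, 0.72, 2.43 and 2.95, and with melatonin -0.33, -0.30, 0.082 and 1.56. The 3 h melatonin array stayed near the level of the 0 and 1 h melatonin arrays, while its partner without melatonin was already high. At 5 h the LPS change was 2.20 ± 0.36 (SE, limma adjusted p = 0.00542), a rise of 4.58-fold. The change at 3 h, 1.20 ± 0.36 (adjusted p = 0.0487), rested on single arrays and on the processing. It became 0.55 (0.165) without the 3 h array without melatonin and 0.79 (0.26) without the 0 h one. Its size stayed at 1.20 but the call was lost without the 1 h (0.0688) or 5 h (0.081) melatonin array, or the 1 h (0.0694) or 5 h (0.0812) array of the other arm. At each of these times either omission takes the same pair out of the estimated spread. With every array kept, the 3 h call was lost under normexp background correction (1.11, limma adjusted p = 0.0545) and without the filter on dim probes (0.11). The same held without the intensity trend (0.0884) and with the common floor (0.0974). Of 16 alternatives, 10 lost this call and 6 kept it. The melatonin difference was -1.39 ± 0.25 (adjusted p = 0.0107), and it was -0.78, -1.02, -2.35 and -1.39 at the 4 times. Its melatonin by LPS term of -0.81 ± 0.51 did not pass (adjusted p = 0.909).

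The activating and the inhibitory low-affinity receptor had 2 probes each. Fcgr3, the activating one, gave opposite LPS directions at its probes, whereas those of Fcgr2b moved together. The middle 30 bases (16 to 45 of 60) of each probe are shown because the Fcgr3 result turns on which probe is read, and no part is in capitals:
Fcgr3 A_51_P328613: gatgtttggttcttcaatcacaacgactta
Fcgr3 A_52_P408757: ctctatcccaaaagccaaccacagtcacag
Fcgr2b A_51_P130095: gaaaccaacagacactacgagattggttcc
Fcgr2b A_52_P545613: ttatcctagtatccttggtctatctcaaga
All 4 probes are on the minus strand of chromosome 1 (mm9), at chr1:172981647-172981722 and chr1:172984129-172984188 for Fcgr3 and at chr1:172890988-172891047 and chr1:172895833-172895892 for Fcgr2b. No mm9 gene annotation was used here, so exons and untranslated regions were not assigned. Slid along each other without gaps, probes of the 4 Fc gamma receptor genes shared at most 22 of 60 bases.

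The brighter Fcgr3 probe, which stands for the gene in the counts, read 0.30, 0.026, -1.03 and -1.82 without melatonin and -0.74, -0.997, -1.96 and -2.54 with it. The LPS change there was -1.28 ± 0.12 (SE, limma adjusted p = 0.0016) at 3 h and -1.96 ± 0.12 (adjusted p = 0.000365) at 5 h, and it fell in both arms. The dimmer probe read -1.85, -1.84, -0.97 and -0.43 without melatonin and -2.60, -2.88, -2.91 and -1.79 with it. In a limma fit of single probes its change was 0.28 ± 0.28 (adjusted p = 0.464) at 3 h and 1.12 ± 0.28 (adjusted p = 0.0204) at 5 h. Averaging both probes ended the call at 3 h (-0.50, adjusted p = 0.0535) and at 5 h (-0.42, adjusted p = 0.0705). Both probes were lower with melatonin, by 0.93 ± 0.085 (adjusted p = 0.00265) at the brighter and by 1.28 ± 0.20 (0.00698) at the dimmer. Over the 8 arrays the Fcgr3 probes correlated at r = -0.0835 with each other. The dimmer one followed several receptors: Cd5 (r = 0.971), the main Fcgr2b probe (0.95), Fcgr4 (0.895) and Msr1 (0.878). The Fcgr2b probes followed each other (0.999). These are descriptions over arrays that share the same 4 times and 2 arms. The cause of the disagreement was not tested, and the LPS direction of Fcgr3 depends on the probe.

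**Figure D3:**
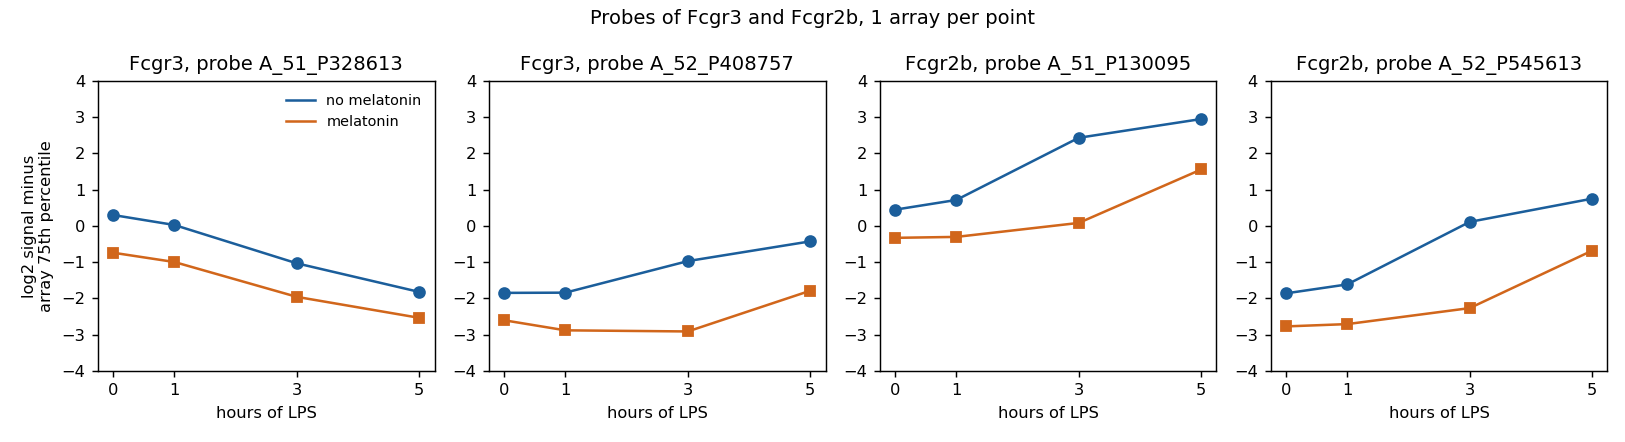
Level (log2 signal minus the array's 75th percentile, vertical axis) against hours of LPS at the probes of Fcgr3 and Fcgr2b, 1 array per point, without melatonin (circles) and with it (squares). The left Fcgr3 probe falls from 0.30 to -1.82 without melatonin while the other rises from -1.85 to -0.43; the Fcgr2b probes run in parallel.

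Fcgr2b, Fcgr4 and Fcgr3 are neighbours on chromosome 1 in RefSeq (GRCm38.p6). The promoters of Fcgr4 (chr1:171018676-171018925, plus strand) and Fcgr3 (chr1:171059404-171059653, minus strand, the first of 2 windows listed) are shown because both hold a kappaB motif, the element bound by NF-kappaB, at -152 to -143. Capitals mark it and the opposite-strand PU.1 motif, at -22 to -17 in Fcgr4 and at -6 to -1 in Fcgr3:
Fcgr4: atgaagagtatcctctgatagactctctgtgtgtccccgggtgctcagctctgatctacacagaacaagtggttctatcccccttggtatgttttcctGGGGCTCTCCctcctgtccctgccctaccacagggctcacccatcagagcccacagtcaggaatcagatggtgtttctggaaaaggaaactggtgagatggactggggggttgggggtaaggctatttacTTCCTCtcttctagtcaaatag
Fcgr3: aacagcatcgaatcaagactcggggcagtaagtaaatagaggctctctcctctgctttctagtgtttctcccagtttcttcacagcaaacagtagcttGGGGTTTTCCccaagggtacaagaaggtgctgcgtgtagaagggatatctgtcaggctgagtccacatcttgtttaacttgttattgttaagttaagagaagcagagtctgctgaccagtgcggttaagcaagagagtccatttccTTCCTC
The kappaB motif was found in 7.25% of all windows and in no other receptor promoter of the 8. The Fcgr2b promoter held none of the 4 motifs searched, and neither did that of Cd36. At 5 h Fcgr4 rose, while the Fcgr3 probes went in opposite directions (-1.96 at the brighter and 1.12 at the dimmer), so no common direction of the genes with this motif can be read.

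Genes measured on either side of this cluster had smaller fitted changes at 5 h. Dusp12 before it changed by 0.43 ± 0.079 at 5 h (limma adjusted p = 0.00788), and Cfap126 just after it by -0.89 ± 0.12 (0.00273), with melatonin differences of -0.17 (0.0584) and 0.36 (0.02). Sdhc, a subunit of mitochondrial complex II and the next gene measured, changed by 0.037 ± 0.083 at 5 h (0.749) and was lower with melatonin by 0.20 ± 0.059 (0.0381). Cfap126 was higher with melatonin while Fcgr2b and Fcgr3 were lower. Farther on, Nr1i3 (-0.473 ± 0.119, limma adjusted p = 0.0261) and Tomm40l (-0.465 ± 0.0595, 0.00455) were lower with melatonin too. Pcp4l1 did not pass (0.30 ± 0.27, 0.41).

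Across the receptors, melatonin arrays were lower than their partners at all 4 times for 7 of 10 (Msr1, Marco, Cd5, Fcgr1, Fcgr3, Fcgr4 and Fcgr2b), as they were for 36.7% of all genes. Differences at a single time rest on 1 array against 1 and have no test. A level at least 1 log2 lower with melatonin was read for 4 receptors at 0 h, 4 at 1 h, 6 at 3 h and 4 at 5 h, beside 2.59%, 3.34%, 5.41% and 4.8% of all genes. Cd5 was in this count at every time. At 3 h the other 5 were Fcgr2b, Cd36, Fcgr1, Fcgr4 and Msr1. For Cd5, Fcgr2b, Cd36, Fcgr1, Fcgr4 and Msr1 the difference at 3 h was the farthest below 0 of the 4 times. The share of all genes with this order was not counted. The 5th percentile of all genes was also lowest at 3 h (-0.75, -0.834, -1.04 and -0.978 at 0, 1, 3 and 5 h). No receptor's melatonin by LPS term passed the test. It averages the differences at 1, 3 and 5 h, so it does not test 3 h on its own. That term was called for none of 19982 genes by limma, with 750 at an unadjusted p under 0.05; it was called for 39 genes without the 1 h melatonin array and for 17 without the 1 h array without melatonin, none of them a receptor.

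**Figure D4:**
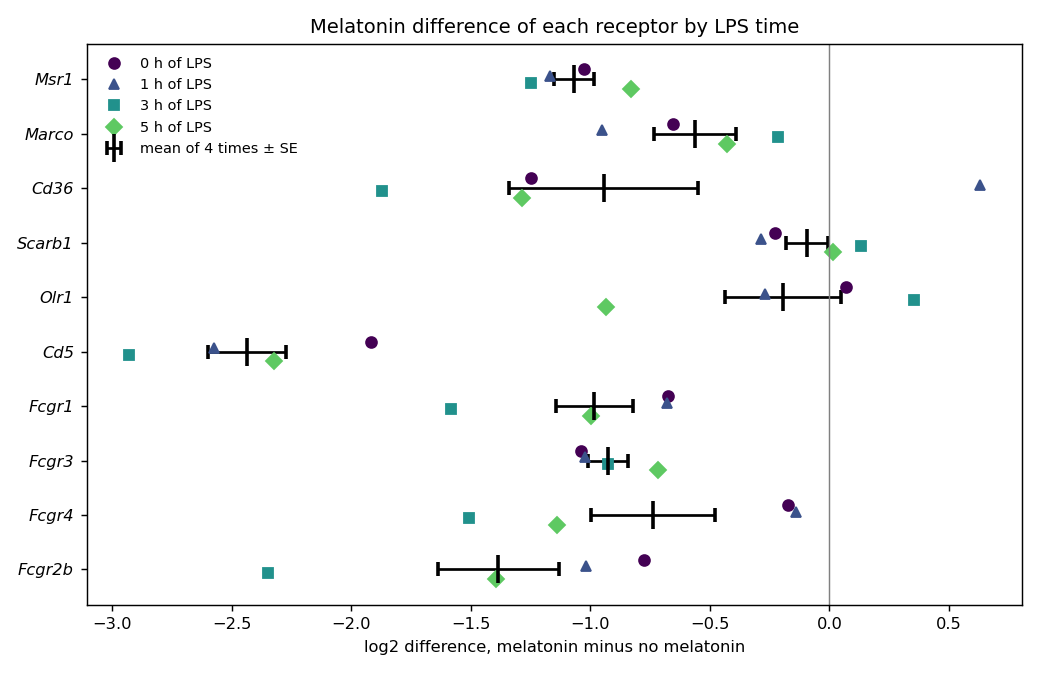
Log2 difference between the melatonin array and the array without melatonin (horizontal axis) for each receptor, 1 coloured symbol per LPS time; the black tick and bar are the limma mean of the 4 times and its standard error. Cd5 lies between -2.93 and -1.92 at all times, and Scarb1 lies around 0.

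The courses of the receptors over the 8 arrays were set against that of Fcgr2b. The correlation with Fcgr2b was r = 0.962 for Msr1, 0.954 for Fcgr4, 0.908 for Cd5 and 0.851 for Cd36, and it was 0.449 for Marco, 0.341 for Olr1, 0.196 for Fcgr1 and -0.691 for Scarb1. For Fcgr3 it was -0.356 at the brighter probe and 0.95 at the dimmer. The 4 receptors with the widest range over the arrays were set against all other genes tested. The genes most like Olr1 were Noct (r = 0.9791), Nom1 (0.9783) and Poldip3 (0.9752). Those most like Cd36 were Vamp5 (0.98), 1700029P11Rik (0.9789) and 4930524O05Rik (0.968). For Cd5 the nearest was Gm31711 (0.9973), followed by features without a gene symbol, which also took the first 3 places for Fcgr2b. Among genes with a symbol, a restriction set after the values were seen, Sh2d6 (0.9937), Rpl7 (0.9926) and Rpl17 (0.9926) were nearest to Fcgr2b. With 8 arrays that share the same design and 19983 genes to choose from, such values are descriptions.

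The signalling partners of the Fc gamma receptors were mostly measurable, and 30 of 31 listed genes were tested. At 5 h of LPS 13 of them rose and 6 fell, with a median change of 0.14 against 0.082 for all genes. Of all genes 24.9% rose and 19.4% fell. Fcer1g, the common gamma chain, rose by 1.07 ± 0.085 (limma adjusted p = 0.000626). Syk, the kinase recruited to the activation motif, rose by 1.54 ± 0.14 (0.00088), and the Src-family kinases Fgr and Lyn by 2.55 ± 0.16 (0.000363) and 1.33 ± 0.11 (0.000677). Inpp5d, whose phosphatase product acts downstream of Fcgr2b, fell by 1.54 ± 0.20 (0.00279), and Plcg1, a phospholipase, fell by 1.60 ± 0.25 (0.0047). Ptpn6, a tyrosine phosphatase, changed by 0.29 ± 0.16 and did not pass (0.192).

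With melatonin, 3 of these 30 partners were higher and 18 lower, with a median difference of -0.28 against -0.096 for all genes. Of all genes 15.4% were higher and 25.3% lower. Neither this list nor those below were tested against the shares of all genes. Fgr was lower by 1.51 ± 0.11 (limma adjusted p = 0.00221), Fcer1g by 0.59 ± 0.060 (0.0031), Lyn by 0.57 ± 0.077 (0.00503) and Ptpn6 by 0.74 ± 0.11 (0.00677). Plcg1 was higher by 0.91 ± 0.18 (0.0125). Syk, at -0.14 ± 0.098 (0.277), and Inpp5d, at -0.092 ± 0.14 (0.626), did not pass.

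Of 19 other scavenger receptors 11 were tested. At 5 h 2 rose and 2 fell, beside 24.9% and 19.4% of all genes. With melatonin 2 were higher and 6 lower, beside 15.4% and 25.3% of all genes. Cxcl16, which encodes a membrane chemokine that also binds oxidised lipoprotein, rose by 2.48 ± 0.25 (limma adjusted p = 0.00118) at 5 h and was lower with melatonin by 1.06 ± 0.17 (0.00801). Lrp1, a large endocytic receptor, fell by 1.10 ± 0.11 (0.00121) at 5 h and was also lower with melatonin, by 0.49 ± 0.078 (0.00745). Cd6, a cysteine-rich receptor closely related to Cd5, rose by 0.86 ± 0.18 (0.0114) at 5 h and was 1.32 ± 0.12 lower with melatonin (0.00275), the largest called melatonin difference of this list. Cd68, a lysosomal scavenger receptor family member, was 0.48 lower with melatonin.

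Of 14 other Fc receptors and Fc-binding proteins 9 were tested. At 5 h 1 rose and 2 fell, beside 24.9% and 19.4% of all genes. With melatonin 1 was higher and 4 lower, beside 15.4% and 25.3% of all genes. Fcgrt, the neonatal Fc receptor that recycles IgG inside cells, fell by 0.72 ± 0.20 (limma adjusted p = 0.0319) at 5 h and was higher with melatonin by 1.00 ± 0.14 (0.00578). Fcrl1, an Fc receptor-like gene, rose by 0.77 ± 0.12 (0.00436) at 5 h.

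Genes of lipid uptake, storage and their nuclear receptors were tested for 20 of 22 listed. At 5 h 8 rose and 6 fell, beside 24.9% and 19.4% of all genes. With melatonin 4 were higher and 6 lower, beside 15.4% and 25.3% of all genes. Fabp4, a fatty acid carrier, rose at 5 h (fitted change 4.21 ± 0.69, limma adjusted p = 0.0055), but its 0 h melatonin array, at -5.29, was not well above background, so this size is not exact. Abcg1, a cholesterol exporter, fell by 3.65 ± 0.21 (0.000338) at 5 h. Lpl, lipoprotein lipase, had the largest called melatonin difference of this list, -1.47 ± 0.079 (0.00221). Pparg, the nuclear receptor known to drive Cd36, was well above background on only 5 of 8 arrays, with levels from -4.28 to -3.42, so that changes could not be measured well; neither its 5 h change (adjusted p = 0.911) nor its melatonin difference (0.0693) passed. Nr1h3, the oxysterol receptor LXR alpha, rose by 0.62 ± 0.15 at 5 h (0.0173).

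Complement and apoptotic-cell uptake receptors were tested for 18 of 23 listed. At 5 h 8 rose and 6 fell, beside 24.9% and 19.4% of all genes. With melatonin 4 were higher and 9 lower, beside 15.4% and 25.3% of all genes. C3ar1, the receptor for the complement fragment C3a, rose at 5 h (fitted change 4.90 ± 0.31, limma adjusted p = 0.000376), but its 0 h melatonin array, at -4.72, was not well above background, so this size is not exact. Itgb5, an integrin subunit, fell by 2.07 ± 0.33 (0.00479) at 5 h. Axl, a receptor tyrosine kinase that binds dying cells through Gas6, rose by 2.18 ± 0.64 (0.037) at 5 h and had the largest called melatonin difference of the list, -2.28 ± 0.45 (0.0133). Its ligand Gas6 went the other way in both comparisons, at -1.52 ± 0.23 (0.00425) for 5 h of LPS and 1.41 ± 0.16 (0.00378) for melatonin.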

How the data were processed

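RNA of 8 RAW264.7 conditions was measured on 1-colour (Cy3) Agilent arrays. The deposited intensity values came from Agilent Feature Extraction (version 12.0.3.1), per the file headers, with background already subtracted. Each other column used was, per the file headers, a flag score of 0 or 1 for spots well above background, saturated or outlying. The deposited log2 table, quantile normalized judging by its values, served as an alternative only. Probe coordinates are those deposited, on mm9.

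The log2 of each processed signal was taken relative to the array's 75th percentile, without the 3671 control spots of 62976. Probes flagged well above background on fewer than 2 of the 8 arrays were dropped, leaving 30430, and each gene was read at its brightest probe by mean. R 4.3.3 and limma 3.58.1 fitted LPS time and melatonin additively over all 19983 genes (3 residual degrees of freedom, intensity trend), with 2-sided Benjamini-Hochberg adjusted p-values. Adding the melatonin by LPS term left 2 degrees. On simulated data, 160 of 200 changed genes were called at 3 h. The members and lists were chosen with earlier results of these data known. All receptors are named; of the lists, direct partners and genes with the largest called changes at 5 h and for melatonin. Promoters and probes were searched for letters only. Alternatives were quantile normalization, the deposited table, normexp background correction with an offset of 50, other filters, no trend, the mean of a gene's probes, a common floor and leaving out each array. When an array is left out, the additive model fits its partner of the same time exactly. Both omissions of a time therefore give the same melatonin difference.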

Additional observations from a re-analysis of the deposited data

How the results depend on the processing

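Each condition has 1 array, and this number limits the precision. Of 1086 recomputed changes of single receptors, 1002 stayed on their side of the threshold, 75 lost a call and 9 gained one. Among the 1002, 37 changed sign, all of them short of the threshold both ways; 0 of the calls changed sign. Calls held under every alternative for 5 of 6 receptors with melatonin (Marco excepted), 4 of 8 at 5 h (Msr1, Cd5, Fcgr2b and Scarb1), 2 of 6 at 3 h (Msr1 and Olr1) and 0 of 1 at 1 h. An alternative chosen after seeing the data read further probes on their own, and it turned the sign for Fcgr3 at 3 h (0.28), at 5 h (1.12) and for 3 h minus 1 h (0.42).

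The receptor count at 1 h went from 1 to 0 without the filter on dim probes, with probes above background on all 8 arrays and with a common floor, and that at 5 h from 8 to 5 with the floor. The 391 genes called at 1 h became 137 without the filter, 155 without the intensity trend and 98 with the floor. Leaving out 1 array gave 95 to 316 genes and 0 to 1 receptors at 1 h, 2489 to 6788 genes at 3 h and 4454 to 8350 at 5 h (both lowest without the 0 h array without melatonin), 4118 to 6752 for melatonin and 0 to 39 for the melatonin by LPS term, which cannot be estimated without either 0 h array. The cause was not tested. No paired analysis was possible because each condition has 1 array and replicate numbers pair nothing; the additive model already compares the arms within each LPS time.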
